A study of Homo sapiens with 9 samples.

Results

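The aldo-keto reductases AKR1A1, AKR1B1, AKR1B10, AKR1C1, AKR1C2, AKR1C3 and AKR7A2 and the carbonyl reductases CBR1 and CBR3 were followed by symbol, each mapped to its Ensembl identifier in the deposited files. These are 9 of the 58884 genes listed, and 7 of the 9 were among the 14454 genes tested. AKR1C1 and AKR1C2 stayed below the filter of at least 0.5 FPKM (fragments scaled to the joined exon length of a gene and to library size) in at least 3 libraries. AKR1B10 passed it only through libraries exposed to PM2.5, so the counts over tested genes given further on describe the set and support nothing about it.

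These enzymes spend NADPH to reduce aldehydes and ketones to alcohols, and so clear carbonyls made by lipid peroxidation, sugar metabolism and foreign chemicals. The aldo-keto reductases fold as a barrel and the carbonyl reductases belong to the short-chain dehydrogenases. In the kidney AKR1B1 is best known for making the osmolyte sorbitol from glucose and AKR1A1 for handling glucuronate, while several human AKR1B, AKR1C and CBR genes are known targets of the oxidant-responsive transcription factor NRF2.

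The cells were HK-2, an immortalised human line of proximal tubule epithelium, grown in serum-free keratinocyte medium with bovine pituitary extract and EGF. The lactoferrin plus PM2.5 group (3 libraries) received lactoferrin, an iron-binding milk glycoprotein, for 6 h and then fine particulate matter (PM2.5) for 18 h. The PM2.5 group (3 libraries) is labelled as exposed for 24 h, and the control group (3 libraries) as untreated at 24 h, although the general protocol speaks of vehicle for controls. Lactoferrin is stated at 40 mg/ml and PM2.5 at 1 mg/ml, and neither unit could be checked. Time in PM2.5 thus differed between the exposed groups, and no group received lactoferrin alone, so lactoferrin and the shorter exposure cannot be told apart. All groups share 1 cell line, and the labels do not say whether replicates were separate cultures, so a p-value speaks of the spread among these 9 libraries, and that spread may be technical.

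The 3 AKR1C genes lie side by side on chromosome 10 of GRCh38, AKR1C1 at 4963253 to 4983283 (plus strand), AKR1C2 at 4987400 to 5018031 (minus strand) and AKR1C3 at 5035354 to 5107686 (plus strand). Their coding sequences, each 969 bases in GENCODE v29, are close copies: AKR1C1 and AKR1C2 were 98.0% identical, AKR1C1 and AKR1C3 91.7%, and AKR1C2 and AKR1C3 91.2%. Of all 50-base windows of the coding sequence, 57.1% in AKR1C2, 54.3% in AKR1C1 and 23.0% in AKR1C3 also occurred in a transcript of another gene. With 100-base windows the shares were 26.4%, 20.7% and 9.8% in that order of genes. The longest run that AKR1C1 and AKR1C2 had in common was 186 bases, from coding base 784 to the last coding base, 969. Its first 90 bases are shown because a read from there carries nothing to tell AKR1C1 from AKR1C2, and capitals mark the 3 bases at which AKR1C3 differs from AKR1C1.
AKR1C1: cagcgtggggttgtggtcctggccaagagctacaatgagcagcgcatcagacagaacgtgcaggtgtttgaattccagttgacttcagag
AKR1C2: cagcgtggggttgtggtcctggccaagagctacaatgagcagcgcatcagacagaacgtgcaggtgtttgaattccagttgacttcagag
AKR1C3: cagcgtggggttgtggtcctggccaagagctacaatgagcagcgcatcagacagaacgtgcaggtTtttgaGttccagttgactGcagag
The sources used here give neither the read length nor the treatment of reads that match several copies. The split of reads between AKR1C1, AKR1C2 and AKR1C3 is therefore uncertain, and the 3 genes are also given as a sum.

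The other members were more distinct. AKR1B1 (chromosome 7, 134442350 to 134459284, minus strand) and AKR1B10 (chromosome 7, 134527592 to 134541408, plus strand) had coding sequences 76.4% identical. In AKR1B10 28.5% of 50-base windows and 3.5% of 100-base windows recurred elsewhere, in its neighbour AKR1B15 or a pseudogene. In AKR1B1 7.2% of 50-base windows recurred, all in its pseudogenes. AKR7A2 (chromosome 1, 19303965 to 19312146, minus strand) had 10.2% of 50-base windows in AKR7A3 or AKR7L. No 50-base window of AKR1A1 (chromosome 1, 45550543 to 45570049, plus strand), CBR1 (chromosome 21, 36069941 to 36073166, plus strand) or CBR3 (chromosome 21, 36134912 to 36146566, plus strand) occurred in a transcript of another gene, although CBR1 and CBR3 were 78.1% identical.

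RefSeq promoter windows on GRCh38.p14, each 250 bases before to 50 bases after a start, were at hand for 7 of the 9 members (10 windows). The AKR1C1 and AKR1C2 windows are shown because these copies are nearly as alike upstream as in their coding sequence, at 97.3% identity with 4 substituted bases and 4 gap columns over 296 aligned columns. The windows of AKR1C3 were 76.9% and 75.3% identical to that of AKR1C1. Capitals mark bases of AKR1C2 that are substituted relative to AKR1C1.
AKR1C1 (chr10:4963165-4963464, plus strand): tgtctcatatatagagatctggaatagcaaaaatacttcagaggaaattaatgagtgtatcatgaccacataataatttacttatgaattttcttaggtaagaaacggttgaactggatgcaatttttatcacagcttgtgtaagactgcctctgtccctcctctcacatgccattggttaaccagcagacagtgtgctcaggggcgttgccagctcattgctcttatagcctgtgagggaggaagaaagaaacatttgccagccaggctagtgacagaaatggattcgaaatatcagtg
AKR1C2 (chr10:5003808-5004107, minus strand): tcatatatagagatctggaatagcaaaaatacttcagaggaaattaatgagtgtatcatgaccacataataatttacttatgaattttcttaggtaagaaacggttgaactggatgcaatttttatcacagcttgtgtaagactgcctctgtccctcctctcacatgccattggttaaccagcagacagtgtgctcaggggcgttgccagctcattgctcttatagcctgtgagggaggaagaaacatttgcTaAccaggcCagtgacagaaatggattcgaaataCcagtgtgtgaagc
The antioxidant response element, to which NRF2 binds with small MAF proteins, has the core TGACNNNGC. This core was searched on both strands and occurred in 2 of the 7 members with a window, CBR1 and AKR7A2, and in 13.3% of all 35116 promoter windows. The CBR1 window held 1 match, on the minus strand, and the first AKR7A2 window held 3 that do not overlap each other. That AKR7A2 window also spans the annotated start of SLC66A1, at 19312326 on the plus strand. Its matches therefore cannot be credited to AKR7A2 alone. Capitals mark these matches.
CBR1 (chr21:36069774-36070073, plus strand): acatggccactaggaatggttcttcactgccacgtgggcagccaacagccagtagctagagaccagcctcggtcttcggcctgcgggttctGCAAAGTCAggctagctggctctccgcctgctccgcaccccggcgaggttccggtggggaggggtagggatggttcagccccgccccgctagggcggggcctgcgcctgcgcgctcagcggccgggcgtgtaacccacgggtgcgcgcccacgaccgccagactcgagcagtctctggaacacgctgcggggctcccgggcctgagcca
AKR7A2 (chr1:19312097-19312396, minus strand): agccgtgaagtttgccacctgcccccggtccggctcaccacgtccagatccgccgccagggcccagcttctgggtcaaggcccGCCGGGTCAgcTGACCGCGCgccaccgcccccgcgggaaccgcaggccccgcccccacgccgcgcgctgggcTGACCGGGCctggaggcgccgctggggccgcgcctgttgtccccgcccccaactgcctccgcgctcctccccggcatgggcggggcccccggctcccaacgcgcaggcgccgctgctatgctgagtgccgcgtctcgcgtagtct
The core of the aryl hydrocarbon receptor's element, GCGTG, also searched on both strands, occurred in 3 of the 7 members (CBR1, AKR7A2 and AKR1B1) and in 36.5% of all windows. A match is a run of letters in this window and not a measured binding site.

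The libraries held 15314701 to 18817526 reads or fragments assigned to genes, as rebuilt from the FPKM values. The first principal component (54.4% of the variance) parted the controls from the exposed libraries. The second (13.6%) was led by lactoferrin replicate 1, which scored 38.2 beside 7.87 and -7.11 for replicates 2 and 3. That library was the highest of its group for 7 of the 9 members, but so was PM2.5 replicate 1 for 7 and control replicate 1 for 6. Control replicate 3 was the lowest of its group for 6 of the 9. The identity of the line was read from marker lists. Of 20 proximal tubule markers 16 stayed below 1 FPKM in every library, SLC5A12 and SLC22A6 were at 0 in all, and the tubular regulator PAX8 lay between 50.4 and 85.7 FPKM. The summed level of that list was 114 to 124 FPKM in lactoferrin plus PM2.5 cells, 115 to 126 FPKM in PM2.5 cells and 90.8 to 92.1 FPKM in controls, and its part in the results was not tested. All 10 distal tubule and collecting duct markers stayed below 1 FPKM. Of the other lists, 6 of 7 epithelial markers, 1 of 9 squamous, 3 of 10 fibroblast and endothelial and 2 of 9 immune markers were tested. KRT5 and KRT1 of keratinocytes were at 0 in every library, and the pan-leukocyte gene PTPRC reached at most 0.0116 FPKM. The fibroblast and endothelial sum was 50.8 to 55.1 FPKM in lactoferrin plus PM2.5 cells, 66.2 to 68.0 FPKM in PM2.5 cells and 48.1 to 54.4 FPKM in controls. Its members did not move one way: LUM averaged 51.2, 64.9 and 43.0 FPKM in that order of groups, and COL1A1 1.14, 1.42 and 6.77 FPKM.

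AKR1B1, aldose reductase, dominated the set on the per-length FPKM scale. It had 1158, 1048 and 893.5 FPKM in lactoferrin plus PM2.5 cells, 963, 901 and 933 FPKM in PM2.5 cells, and 1094, 992 and 764 FPKM in controls. It ranked 27th of all listed genes by its mean level, and its 3 groups overlapped. The level order was the same in both exposed groups: AKR1B1, CBR1, AKR1A1, AKR7A2, AKR1C3, CBR3, AKR1B10, AKR1C1 and AKR1C2. In controls AKR7A2 stood before CBR1 and AKR1A1 and the rest of the order was the same. The ranges of AKR1A1 and AKR7A2 overlapped in both exposed groups, those of CBR3 and AKR1B10 in lactoferrin plus PM2.5 cells, and those of AKR7A2, CBR1 and AKR1A1 in controls. CBR1 was clear of AKR1A1 and AKR7A2 in both exposed groups. The order depends on the length used, the joined exons of each gene: 8765 bases for AKR1C1 and 6461 for AKR1C2, but 1744 for AKR1B10. By reads AKR1C1 stood above AKR1B10 in every library, with 65, 34 and 48 against 27, 23 and 31 in PM2.5 cells. The FPKM of AKR1C1, and so its place below the filter, depend on that length.

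**Figure D1:**
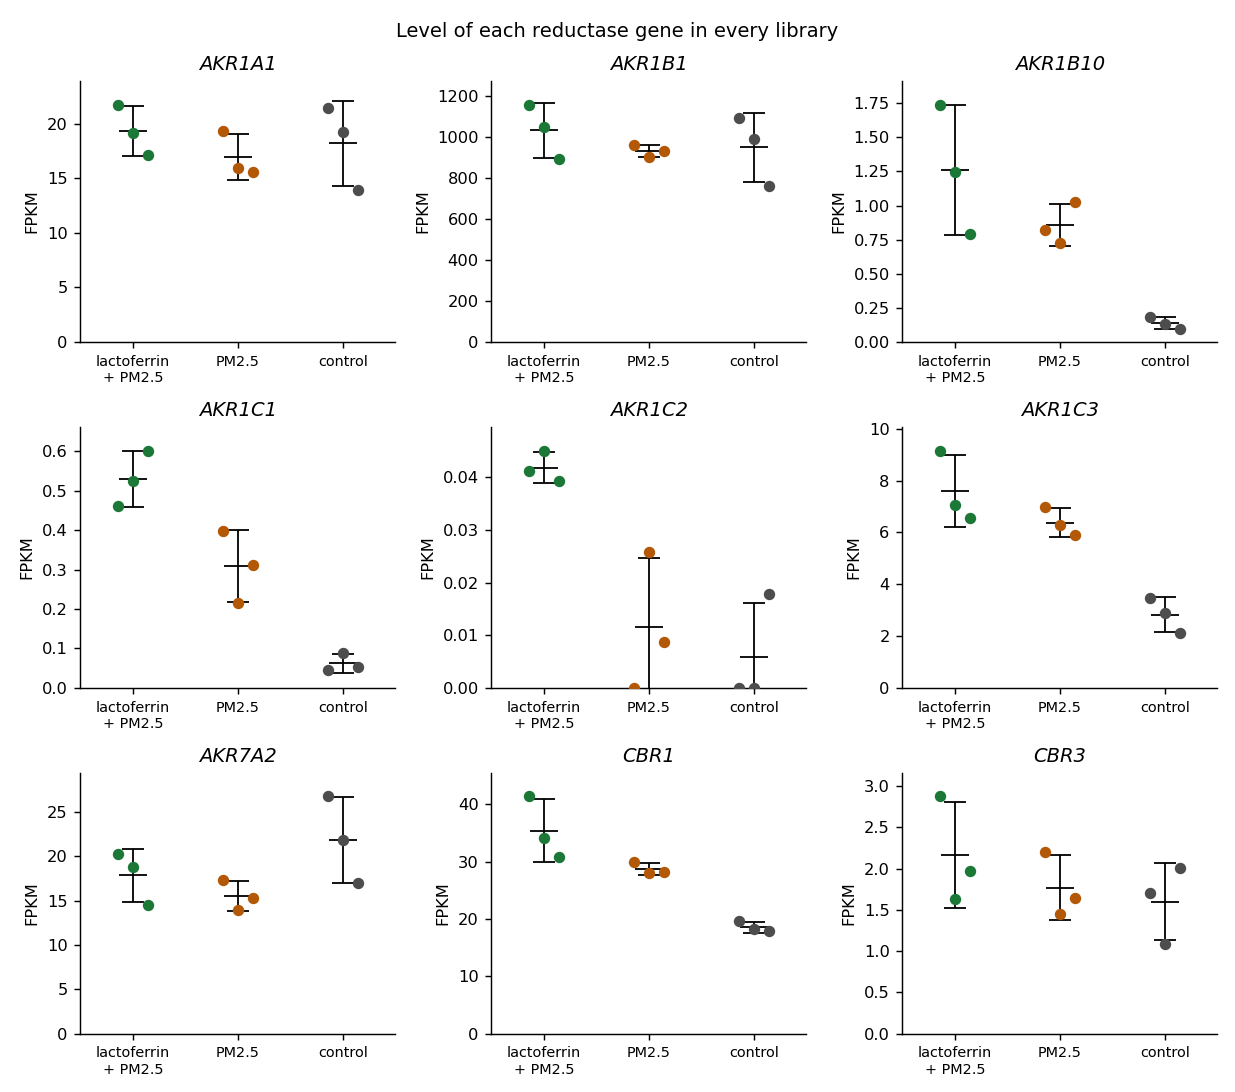
Level of each of the 9 genes in FPKM (vertical axes, each starting at 0 with its own scale) in lactoferrin plus PM2.5, PM2.5 and control libraries. Points are libraries in the order of replicates 1 to 3, and bars are the mean and SD (n = 3), cut off at 0 for AKR1C2; the control points of AKR1B10, AKR1C1, AKR1C3 and CBR1 lie below all 6 exposed points, and those of AKR1A1, AKR1B1 and CBR3 do not.

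The first comparison set PM2.5 cells against controls. AKR1C3, AKR1C1, AKR1B10 and CBR1 were higher in all 3 PM2.5 libraries than in any control, with mean FPKM 2.26, 4.96, 6.15 and 1.54 times those of controls in that order of genes. AKR7A2 was lower, at 0.710 times the control mean, and AKR1A1, AKR1B1 and CBR3 did not pass the test in either direction. In RNA from whole cultures, fewer cells of a kind and less RNA per cell cannot be told apart. Of the 7 tested members 3 were called higher and 1 lower (limma on log2(FPKM + 0.5), Benjamini-Hochberg adjusted p under 0.05 over all 14454 tested genes), where 18.5% of all tested genes were called higher and 16.6% lower. Of all tested genes 30.9% had every PM2.5 library above every control, as 3 of the 7 did. The median log2 fold change of the 7 was 0.083, beside -0.001 over all tested genes.

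The AKR1C enzymes reduce ketosteroids and prostaglandins. AKR1C3, which makes testosterone from androstenedione and F-type prostaglandins from prostaglandin D2 and H2, was the most abundant of the 3 copies. It had 6.96, 6.30 and 5.88 FPKM in PM2.5 cells, against 3.47, 2.89 and 2.11 FPKM in controls. Every PM2.5 library lay above every control, and its log2 fold change was 1.02 ± 0.17 (SE; limma, adjusted p = 0.00161). AKR1C1, which inactivates progesterone, had 65, 34 and 48 reads in PM2.5 libraries, against 6, 13 and 8 reads in controls, or 0.398, 0.216 and 0.311 FPKM against 0.0447, 0.0896 and 0.0523 FPKM. The groups do not overlap. It was below the FPKM filter, and a test chosen after the data were seen, limma-voom on the rebuilt reads with at least 10 reads in at least 3 libraries (15050 genes), gave a log2 fold change of 2.21 ± 0.37 (adjusted p = 0.000625). Only 1 control library reached 10 reads, so AKR1C1 entered that test through the exposed libraries, where it is high, and the value is a description. That test called 19.3% of its genes higher. AKR1C2, which reduces dihydrotestosterone, had 0, 3 and 1 reads in PM2.5 libraries, against 0, 0 and 2 reads in controls, too few for either test. With the 3 copies summed, 652, 549 and 518 reads stood in PM2.5 libraries, against 247, 230 and 177 reads in controls. The sum does not depend on how counted reads were split among the 3, though reads left uncounted for matching several copies would be missing from it. On the FPKM scale the summed reads were divided by the summed length of the 3 genes, which lowers the level and lets the added 0.5 weigh more. The log2 fold change was 0.81 ± 0.13 (limma on FPKM, adjusted p = 0.00174). Limma-voom under the FPKM filter gave 1.21 ± 0.17 (adjusted p = 0.000178). With at least 10 reads in at least 3 libraries limma-voom gave 1.21 ± 0.17 (adjusted p = 0.000155). With 0.1 or 1 added to FPKM in place of 0.5 the limma value was 1.10 ± 0.18 or 0.61 ± 0.11.

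**Figure D2:**
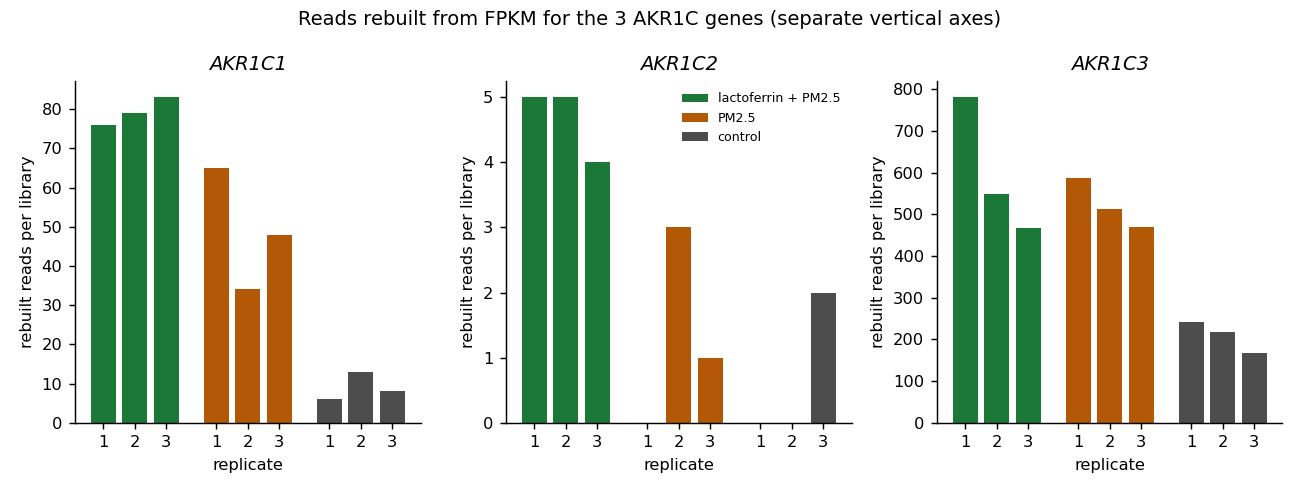
Reads rebuilt from FPKM (vertical axes, separate scales from 0) for AKR1C1, AKR1C2 and AKR1C3 in replicates 1 to 3 (horizontal axis) of the lactoferrin plus PM2.5, PM2.5 and control groups. AKR1C3 carried 167 reads or more in every library, AKR1C1 at most 83 and AKR1C2 at most 5.

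AKR1B10, which reduces retinaldehyde and lipid aldehydes, had 0.818, 0.723 and 1.025 FPKM in PM2.5 cells, against 0.184, 0.136 and 0.0970 FPKM in controls. These values came from 27, 23 and 31 reads in PM2.5 libraries, against 5, 4 and 3 reads in controls. The groups do not overlap, but few reads stand behind the control values. The log2 fold change was 1.06 ± 0.21 (limma, adjusted p = 0.00421), and adding 0.5 to so low a level makes it smaller than the ratio of the means. Limma-voom on rebuilt reads, which adds no such constant to FPKM, gave 2.45 ± 0.51 (adjusted p = 0.00265). Its version with at least 10 reads in at least 3 libraries gave 2.45 ± 0.48 (adjusted p = 0.00186). No control reached 0.5 FPKM or 10 reads, so AKR1B10 entered these tests only through the exposed libraries, where it is high. The values are therefore a description.

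AKR1B1 differed little beside its spread, with a log2 fold change of -0.06 and a 95% confidence interval of -0.40 to 0.28 (limma, adjusted p = 0.772). AKR1A1, aldehyde reductase, had 19.3, 15.9 and 15.6 FPKM in PM2.5 cells, against 21.4, 19.3 and 13.9 FPKM in controls. Control replicate 3 was the lowest library of both groups, and the log2 fold change was -0.13 with an interval of -0.49 to 0.22 (adjusted p = 0.54). AKR7A2, which reduces succinic semialdehyde and a dialdehyde of aflatoxin, had 17.3, 13.95 and 15.2 FPKM in PM2.5 cells, against 26.7, 21.8 and 17.0 FPKM in controls. In deposited FPKM the groups overlap, since control replicate 3 lay just under PM2.5 replicate 1. On the log2 values that were fitted, after scaling of the libraries, they do not overlap. There control replicate 3 was at 4.225 and PM2.5 replicate 1 at 4.161. The log2 fold change was -0.51 ± 0.17 (limma, adjusted p = 0.0446). That call lies close to the threshold: leaving out control replicate 1 or 2, any of the PM2.5 libraries or lactoferrin replicate 2 ended it, with an adjusted p of up to 0.139, while leaving out control replicate 3 gave -0.65 ± 0.17 (adjusted p = 0.0242). Of all alternative settings 9 ended the call and 12 kept it. Among the latter were limma-voom (adjusted p = 0.0291), limma with a replicate block (adjusted p = 0.00606) and limma with library weights (adjusted p = 0.0014).

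CBR1, which reduces quinones, prostaglandins and anthracycline drugs, had 30.0, 28.1 and 28.1 FPKM in PM2.5 cells, against 19.7, 18.2 and 17.9 FPKM in controls. Both groups were tight, with coefficients of variation of 3.75% and 5.24%, and every PM2.5 library lay above every control. The log2 fold change was 0.56 ± 0.12 (limma, adjusted p = 0.00605). CBR1 lies within the span of SETD4, a gene of the opposite strand (chromosome 21, 36034541 to 36079389). SETD4 averaged 1.85 FPKM in PM2.5 cells and 1.20 FPKM in controls. Reads from any overlapping exons cannot be assigned without a strand setting, and whether exons overlap was not examined. CBR3, its neighbour with a narrower range of substrates, had 2.21, 1.45 and 1.65 FPKM in PM2.5 cells, against 1.70, 1.09 and 2.01 FPKM in controls. The groups overlapped throughout, and the log2 fold change was 0.08 with an interval of -0.44 to 0.61 (adjusted p = 0.808). CBR3 rested on 21 to 63 reads per library, and a difference of the size seen in CBR1 lies within its interval. An antisense gene, CBR3-AS1, overlaps it and had 0.420, 0.381 and 0.373 FPKM on average in lactoferrin plus PM2.5 cells, PM2.5 cells and controls. With no strand setting given, reads of CBR3 and CBR3-AS1 cannot be told apart where exons overlap, and exon overlap was not examined.

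The second comparison set lactoferrin pretreatment plus PM2.5 against PM2.5. No member was called: 0 of 7 passed (limma, adjusted p under 0.05), 1 of 7 had an unadjusted p under 0.05, and limma-voom on rebuilt reads called 0 of 8 including AKR1C1, where it called 0.0332% of its genes higher. Over all tested genes 0.0208% were called higher and 0.0277% lower. The log2 fold changes of all 7 were above 0, with a median of 0.22 beside 0.001 over all tested genes, of which 50.1% were above 0. Lactoferrin replicate 1 bears on this: without it the 7 values lay between 0.03 (CBR3) and 0.17 (CBR1).

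Among the 7 genes of the FPKM test CBR1 had the smallest adjusted p. It had 41.4, 34.1 and 30.8 FPKM in lactoferrin plus PM2.5 cells, against 30.0, 28.1 and 28.1 FPKM in PM2.5 cells. In deposited FPKM the groups do not overlap, as was so in the higher direction for 11.3% of all tested genes. The lowest lactoferrin library lay close to the highest PM2.5 library. On the log2 values that were fitted, after scaling of the libraries, the groups overlap. There lactoferrin replicate 3 was at 4.915 and PM2.5 replicate 1 at 4.934. The log2 fold change was 0.29 ± 0.12 (limma, adjusted p = 0.398), and without lactoferrin replicate 1 it was 0.17 ± 0.08 (adjusted p = 0.773). AKR1C1 had 76, 79 and 83 reads in lactoferrin plus PM2.5 libraries, against 65, 34 and 48 reads in PM2.5 libraries. Those read counts do not overlap, and limma-voom gave 0.80 ± 0.23 (adjusted p = 0.243). It was the member for which lactoferrin replicate 1 was the lowest of its group, and without that library the value was 0.89 ± 0.25 (adjusted p = 0.371). AKR1C2 had 5, 5 and 4 reads in lactoferrin plus PM2.5 libraries, against 0, 3 and 1 reads in PM2.5 libraries, and was not tested.

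AKR1C3 had 9.16, 7.06 and 6.565 FPKM in lactoferrin plus PM2.5 cells, against 6.96, 6.30 and 5.88 FPKM in PM2.5 cells. The groups overlap, and the log2 fold change was 0.23 with an interval of -0.15 to 0.60 (limma, adjusted p = 0.532). AKR1B10 had 1.74, 1.25 and 0.789 FPKM in lactoferrin plus PM2.5 cells, against 0.818, 0.723 and 1.025 FPKM in PM2.5 cells. It had the widest spread of the tested members in the lactoferrin group, with a coefficient of variation of 37.7%, and its log2 fold change was 0.35 with an interval of -0.12 to 0.82 (adjusted p = 0.472). Without lactoferrin replicate 1 it was 0.15 ± 0.19 (adjusted p = 0.936). For AKR1A1 (21.7, 19.2 and 17.1 FPKM), AKR7A2 (20.2, 18.8 and 14.45 FPKM) and CBR3 (2.875, 1.635 and 1.97 FPKM) the lactoferrin plus PM2.5 libraries overlapped those of PM2.5 cells, as they did for AKR1B1. Their log2 fold changes were 0.19, 0.19, 0.22 and, for AKR1B1, 0.14, with adjusted p of 0.583 to 0.667. Of these 4 genes AKR1B1 had the narrowest interval, -0.20 to 0.48, and CBR3 the widest, -0.30 to 0.74.

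The third comparison set lactoferrin plus PM2.5 against control, and shares its control libraries with the first. Of the 7 tested members 3 were called higher and 0 lower (limma, adjusted p under 0.05), where 19.8% of all tested genes were called higher and 18.5% lower. AKR1B10 had a log2 fold change of 1.41 ± 0.21 (adjusted p = 0.000771), AKR1C3 of 1.25 ± 0.17 (adjusted p = 0.000442) and CBR1 of 0.86 ± 0.12 (adjusted p = 0.000569). In these 3 genes every lactoferrin plus PM2.5 library lay above every control, as was so for 26.8% of all tested genes, with mean FPKM 9.04, 2.69 and 1.90 times those of controls in that order. AKR1C1 reached 8.51 times the control mean (limma-voom 3.01 ± 0.36, adjusted p = 4e-05, a test that called 20.5% of its genes higher). AKR1B10 and AKR1C1 entered their tests through the exposed libraries, where they are high, so their values here are a description. AKR7A2 averaged 17.8 ± 2.997 FPKM in lactoferrin plus PM2.5 cells and 21.8 ± 4.87 FPKM in controls (SD, n = 3 each), with a log2 fold change of -0.32 ± 0.17 that was not called (adjusted p = 0.17). A call in 1 exposed group and not in the other shows no difference between them, since the direct comparison for AKR7A2 had an adjusted p of 0.611. AKR1A1, AKR1B1 and CBR3 had log2 fold changes of 0.05, 0.08 and 0.30 with adjusted p of 0.812, 0.705 and 0.336, and the signs of AKR1A1 and AKR1B1 turned when lactoferrin replicate 1 or control replicate 3 was left out.

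**Figure D3:**
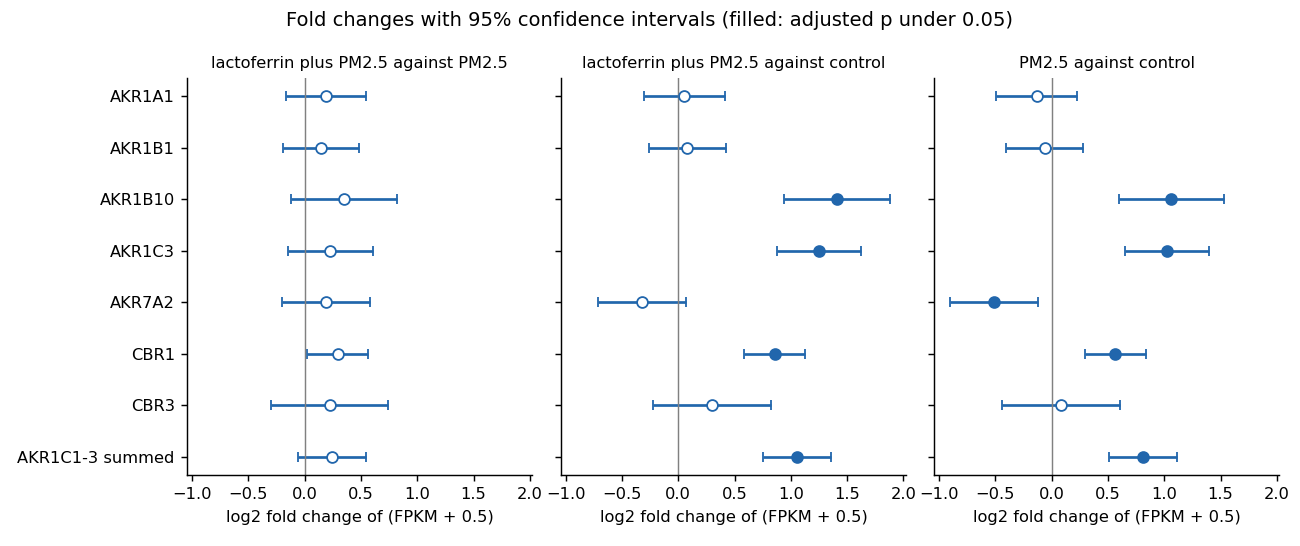
Log2 fold changes of (FPKM + 0.5) with 95% confidence intervals (horizontal axis) for the 7 tested genes and for AKR1C1, AKR1C2 and AKR1C3 summed, in 3 comparisons; filled points have an adjusted p under 0.05 (limma, over all tested genes). Points are filled for AKR1B10, AKR1C3, CBR1 and the sum in both comparisons with control and for AKR7A2 in PM2.5 against control, and all points of lactoferrin plus PM2.5 against PM2.5 are open and above 0.

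The make-up of the set was compared as each gene's share of the summed FPKM of the 9 genes. AKR1B1 held 92.5% ± 0.234 in lactoferrin plus PM2.5 cells, 93.0% ± 0.337 in PM2.5 cells and 93.7% ± 0.239 in controls (SD, n = 3 each). The shares in the exposed groups lay below all those of controls. AKR1C3 held 0.678%, 0.636% and 0.276% in that order of groups, and CBR1 3.17%, 2.86% and 1.87%. AKR7A2 held 1.59%, 1.54% and 2.15%, and its shares in every exposed library lay below those in every control, although its deposited FPKM values overlapped. An exact permutation test of 3 libraries against 3, two-sided, gave p = 0.1 for each of these 4 genes against control in either exposed group, the smallest it can give. After adjustment over the 9 genes these were 0.15 for PM2.5 and 0.129 for lactoferrin plus PM2.5. Without AKR1B1 the other 8 genes summed to 84.2 ± 12.7 FPKM in lactoferrin plus PM2.5 cells, 70.5 ± 5.69 FPKM in PM2.5 cells and 63.3 ± 10.1 FPKM in controls.

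Genes of related pathways were taken from lists, with values given here for PM2.5 against control as log2 fold changes (limma, SE). In the other aldo-keto reductase genes, 1 of 10 was tested: KCNAB2, a potassium channel beta subunit of this fold, rose by 1.81 ± 0.10. The liver copy AKR1C4 was at 0 in every library, and AKR1B15, a close copy of AKR1B10, had at most 2 reads in a library. Of 20 other carbonyl-reducing enzymes tested, 6 rose and 2 fell, with a median of 0.057. Retinol dehydrogenase RDH10 rose by 1.28 ± 0.12, the quinone reductase NQO2 by 0.61 ± 0.12 and VAT1, a protein related to quinone oxidoreductases, by 0.56 ± 0.09. The retinol dehydrogenase DHRS9 fell (-1.64 ± 0.15), as did the mitochondrial carbonyl reductase CBR4 (-0.49 ± 0.10). DCXR, which reduces xylulose, was not called (-0.47 ± 0.22, adjusted p = 0.132). Among 12 genes of the aldehyde dehydrogenase family, many but not all of which oxidise aldehydes, 3 rose and 2 fell with a median of -0.037. ALDH1A3, which makes retinoic acid, rose by 2.13 ± 0.08 and ALDH3A2, which clears fatty aldehydes, by 0.46 ± 0.07, while ALDH7A1 (-0.79 ± 0.11) and ALDH18A1 (-0.25 ± 0.07) fell.

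NADPH is the cofactor of all 9 enzymes. Of 15 NADPH-supplying genes tested, 8 rose and 2 fell, with a median of 0.301. Malic enzyme ME1 rose by 1.13 ± 0.08 to 65.5 ± 1.02 FPKM in PM2.5 cells, against 28.6 ± 1.03 FPKM in controls (SD, n = 3 each). MTHFD2 rose by 0.72 ± 0.10 and PGD by 0.30 ± 0.10, while mitochondrial IDH2 fell (-0.86 ± 0.12). In the polyol and methylglyoxal list 2 of 6 rose: SORD, which oxidises the sorbitol made by AKR1B1, by 0.72 ± 0.09, and the fructose kinase KHK by 0.59 ± 0.16. Glyoxalase genes GLO1 (0.23 ± 0.10, adjusted p = 0.112) and HAGH (-0.22 ± 0.13, adjusted p = 0.23) were not called. AKR1B1 itself, upstream of SORD, was not called.

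Of 22 other NRF2 targets 18 rose and 1 fell, with a median of 0.843. HMOX1, heme oxygenase, rose by 4.00 ± 0.13, TXNRD1 by 2.14 ± 0.11, OSGIN1 by 2.19 ± 0.12 and GCLM by 1.37 ± 0.07. The list was drawn up with results of these libraries known, so it is no independent evidence of a direction. Of 13 regulators of NRF2 3 rose and 0 fell: SQSTM1 (1.87 ± 0.10), which binds KEAP1, and the small MAF genes MAFG (1.44 ± 0.11) and MAFF (0.85 ± 0.08). NFE2L2, which encodes NRF2, was not called (-0.31 ± 0.13, adjusted p = 0.0941), nor were its inhibitor KEAP1 (0.19 ± 0.10, adjusted p = 0.156) and the repressor BACH1 (-0.16 ± 0.15, adjusted p = 0.447).

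In prostaglandin metabolism, which AKR1C3 and CBR1 take part in, 6 of 13 genes rose and 2 fell, with a median of 0.281. PLA2G4A, which frees arachidonic acid, rose by 1.32 ± 0.13, TBXAS1 by 1.21 ± 0.10 and PRXL2B, another prostaglandin F synthase, by 0.72 ± 0.09. HPGD, which inactivates prostaglandins, fell (-1.58 ± 0.14) to 0.419 ± 0.0936 FPKM in PM2.5 cells, against 2.17 ± 0.126 FPKM in controls (SD, n = 3 each). PTGS2 was below the filter, with 0.215 ± 0.0541 FPKM in PM2.5 cells and 0.163 ± 0.0340 FPKM in controls. Of 12 steroid and retinoid genes 3 rose and 4 fell, with a median of -0.199. The retinoic acid carrier CRABP2 (-2.93 ± 0.13), HSD17B8 (-1.42 ± 0.21) and SRD5A3 (-0.78 ± 0.12) fell, and HSD3B7 of bile acid synthesis rose (1.05 ± 0.13). In lactoferrin plus PM2.5 against PM2.5 0 genes of any of these lists were called (limma). In lactoferrin plus PM2.5 against control, the lists gave 20 higher and 1 lower of 22 other NRF2 targets, 9 and 2 of 15 NADPH-supplying genes, 7 and 2 of 13 prostaglandin genes and 5 and 2 of 20 other carbonyl-reducing enzymes. They gave 2 higher and 3 lower of 12 aldehyde dehydrogenases, 3 and 2 of 13 NRF2 regulators, 3 and 0 of 6 polyol and methylglyoxal genes and 3 and 4 of 12 steroid and retinoid genes. In the direct comparison of the exposed groups HMOX1 stood nearest to a call among the genes named here, at 0.75 ± 0.13 (adjusted p = 0.0879).

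**Figure D4:**
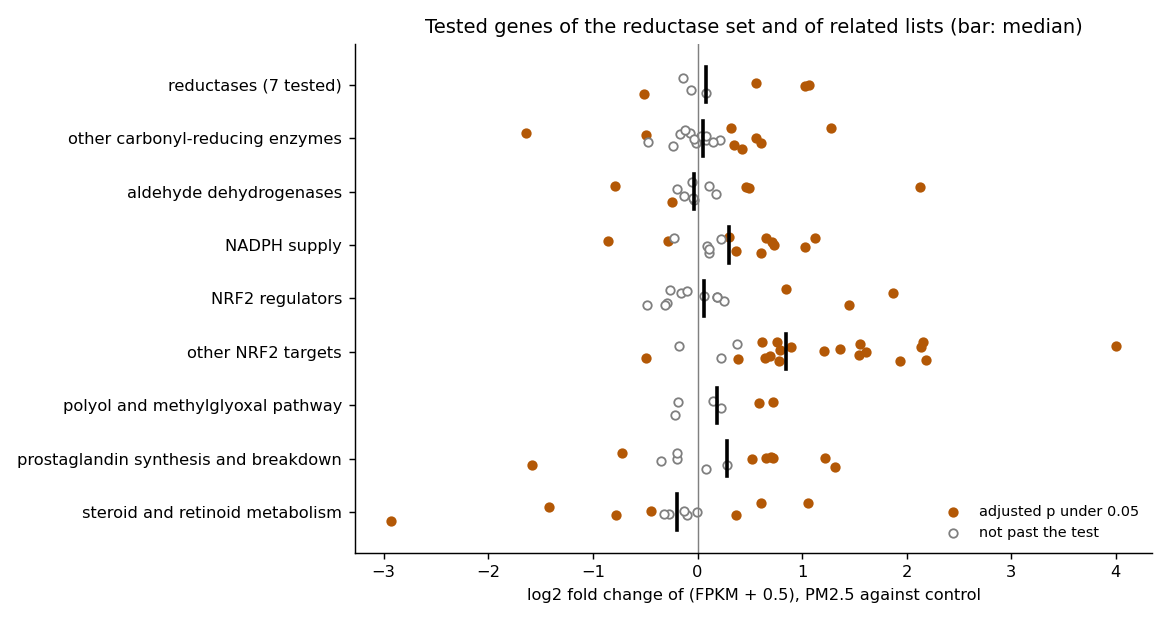
Log2 fold change of (FPKM + 0.5) for PM2.5 against control (horizontal axis) of every tested gene in the reductase set and in 8 related lists (rows), with a black bar at each list's median and filled points for an adjusted p under 0.05 (limma). The other NRF2 targets have the highest median, 0.843, and the steroid and retinoid list the lowest, -0.199, beside 0.083 for the 7 tested reductases.

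To find genes with a like pattern, each library's log2 level was taken relative to the control mean, and tested genes with a mean of at least 5 FPKM (6555 genes) were ranked by the root mean square difference over the 9 libraries. For AKR1B10 the nearest were PLIN2, a lipid droplet coat protein (0.161), the polyamine enzyme ODC1 (0.175), PNP (0.177), TRIM16 (0.178) and PHLDA2 (0.179). For the summed AKR1C genes they were FHL2 (0.058), CCDC86 (0.066), BRI3 (0.080), MAP1LC3B (0.085) and PLAAT3 (0.086). For CBR3, which did not pass any test, they were DPCD (0.160), MIX23 (0.166), FABP5 (0.167), SURF2 (0.170) and TBCA (0.171). These values describe likeness over libraries that share their 3 groups. The ranking depends on the 0.5 added to FPKM, which narrows the change of AKR1B10 and of the AKR1C sum but hardly that of genes of at least 5 FPKM, so the genes named for those 2 changed less than the ratios of mean FPKM of AKR1B10 and the AKR1C sum.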

How the data were processed

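RNA-seq of 9 HK-2 libraries, 3 per group by the sample labels, was used. The deposited values are FPKM, 1 file per sample, and the unit was inferred from the values. Per the submitters' processing notes, the authors used HISAT2 2.1.0 and featureCounts 1.6.0 on GRCh38, beside Trimmomatic 0.38, DESeq2 1.22.1, CASAVA, FastQC and MultiQC. Not given in the sources used here are the annotation release and the strand and multi-mapping settings. FPKM times the union exon length in GENCODE v29 gave whole reads, within 0.05 of a read, for 85.9% to 87.2% of low values (at most 200 reads) per library, and 15314701 to 18817526 reads or fragments in all.

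FPKM were divided by factors of a trimmed mean of M values (0.934 to 1.04). Then log2(FPKM + 0.5) was fitted with 3 group means in limma 3.58.1 (R 4.3.3; trend and robust options), with adjustment over the 14454 genes of at least 0.5 FPKM in at least 3 libraries. The 9 libraries were fitted together, which pools the spread over groups. Deposited FPKM, without that factor, are printed as levels. Limma-voom on rebuilt reads was an alternative, and its version with at least 10 reads in 3 libraries was added after the data were seen. The fit was tested on simulated data.

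The members and the 10 gene lists and 6 marker lists were chosen with earlier results of these data known. Named were all 9 members, up to 4 genes of each list with the smallest adjusted p in PM2.5 against control, and 13 genes given by name. A gene that this rule selects is not reported here. Coding sequences were aligned with Biopython 1.88. Protein sequences and the promoters of AKR1B10 and CBR3 were not analysed here. Figures were drawn with matplotlib 3.10.9.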

Additional observations from a re-analysis of the deposited data

How the results depend on the processing

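Over 27 log2 fold changes (9 values in each of 3 comparisons) and 528 alternative values, 504 kept their direction and their side of the threshold, 9 lost the call, 5 gained it and 10 turned their sign. All 9 lost calls were those of AKR7A2 in PM2.5 against control, under no scaling (-0.46), upper-quartile factors (-0.49), no filter (-0.51) and 6 left-out libraries (-0.60 to -0.38), with an adjusted p of 0.0572 to 0.139. The turned signs were of uncalled values near 0. In PM2.5 against control AKR1B1 gave 0.028 without control replicate 1, and CBR3 gave -0.06 without PM2.5 replicate 1 and -0.12 without control replicate 2. In lactoferrin plus PM2.5 against control AKR1A1 gave -0.0449 with library weights, -0.04 without lactoferrin replicate 1, -0.092 without control replicate 3 and -0.20 without both, and AKR1B1 gave -0.014, -0.035 and -0.14 in those 3 omissions. Gained calls were AKR7A2 in lactoferrin plus PM2.5 against control (-0.32 with library weights, -0.57 without both libraries) and, with weights, AKR1A1 in PM2.5 against control (-0.28) and CBR1 in lactoferrin plus PM2.5 against PM2.5 (0.26), so that 1 member was called there. Library weights, which were shared by all genes, came from the gene-by-gene algorithm of limma. They raised the genes called to 7726, beside 5078, in PM2.5 against control and to 1943, beside 7, in lactoferrin plus PM2.5 against PM2.5. That count of 7 was 17 under the stricter filter of 2 FPKM, 16 by limma-voom, 4 with the 6 libraries compared alone, and 0 to 9 when 1 library was left out. The cause was not tested. Over the left-out libraries the lowest and highest values were, in PM2.5 against control, -0.18 and 0.028 for AKR1B1 and -0.12 and 0.25 for CBR3, and in lactoferrin plus PM2.5 against control -0.092 and 0.16 for AKR1A1 and -0.035 and 0.20 for AKR1B1. The number of members called stayed at 3 to 4, 0 and 3 over the left-out libraries in the 3 comparisons.

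Over all tested genes same-numbered libraries deviated together only weakly (9 correlations from -0.0682 to 0.179, 2 of them over 0.1). Differently numbered libraries gave -0.179 to 0.136. The main fit therefore did not pair the samples by replicate number. Among the members, however, replicate 1 was the highest of its group for 6 to 7 of the 9 in each group. A replicate block lowered the SE from 0.1582 to 0.0774 for AKR1A1 and from 0.1664 to 0.0867 for AKR1C3. It hardly changed that of AKR1B10 (0.2081 to 0.2068). The intervals and p-values of the main fit take no account of such a replicate effect. With a replicate block the comparison of lactoferrin plus PM2.5 with PM2.5 called 13 genes and 0 members, and AKR7A2 passed in lactoferrin plus PM2.5 against control (-0.32, adjusted p = 0.0346).

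Depth limits AKR1C2 (at most 5 reads a library), AKR1C1 and AKR1B10 in controls, and CBR3.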

Other observations

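Genes beside the members were read for PM2.5 against control (limma). Of 5 tested neighbours 2 rose and 1 fell, with a median log2 fold change of 0.225. SLC66A1, a lysosomal amino acid transporter gene, lies beside AKR7A2 on the opposite strand, and its annotated start falls within the AKR7A2 promoter window. It averaged 14.8 ± 0.736 FPKM in PM2.5 cells and 7.47 ± 0.702 FPKM in controls (SD, n = 3 each). It rose by 0.89 ± 0.09 on the log2 scale (adjusted p = 0.000117) where AKR7A2 was lower. SETD4, a methyltransferase gene that spans CBR1 on the opposite strand, had a value of 0.43 ± 0.10 (adjusted p = 0.00854). Without a strand setting its reads and those of CBR1 cannot be told apart where exons overlap, and exon overlap was not examined. NASP, a histone chaperone gene near AKR1A1, fell (-0.77 ± 0.20, adjusted p = 0.0169). The peroxiredoxin gene PRDX1, also near AKR1A1, was not called in PM2.5 against control (0.22 ± 0.16, adjusted p = 0.302) and was called in lactoferrin plus PM2.5 against control (0.48 ± 0.16, adjusted p = 0.0398). It was not called in lactoferrin plus PM2.5 against PM2.5 (0.25 ± 0.16, adjusted p = 0.483).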
